A study of Mus musculus with 2 samples.

Results

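Resident cardiac macrophages are the macrophages that live in the heart before any injury. Many of them descend from precursors that seeded the tissue before birth, they renew themselves in place, and they carry little or no CCR2, the chemokine receptor that brings monocytes in from blood. In the undisturbed heart they take up debris and dying cells, bind matrix and serum components, and secrete growth factors, and they express a set of genes for these tasks that is often called homeostatic. To ask what becomes of this set after a catecholamine surge, 9 genes known from such macrophages were followed by name, namely Lyve1, Folr2, Cbr2, Mrc1, Gas6, Igf1, Pf4, Cx3cr1, and Gpr34. All 9 were found among the 23946 genes with a count in either library. A lower level in the tissue can mean fewer cells of this kind, or fewer transcripts in the cells that remain, and the measurements below were arranged to tell these apart as far as counts of single cells allow.

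The cells came from WT female C57BL6 mice given 1 i.p. injection of 200 mg/kg isoproterenol (ISO), an agonist of beta-adrenergic receptors, or of PBS vehicle. The libraries are labelled TTS, for Takotsubo syndrome, and Control. The treatment label gives the ISO dose for both, and the Control library was taken as PBS from its title and the study's methods. At 24 hours live CD45+ cells, which are leukocytes, were sorted from 3 hearts per group, pooled, and loaded as 15000 cells on a 10x Genomics Chromium Controller, so that each group is 1 library of WT animals without a transgene. The labels give no age for these mice, and the study's methods give 8 to 16 weeks for the mice that received ISO. The control library held 47382455 unique molecular identifiers (UMIs, each counting 1 RNA molecule) in 5927 barcodes, and the ISO library held 58495112 UMIs in 5514 barcodes. The study's filters on genes and mitochondrial UMIs kept 5641 control and 5437 ISO cells, with medians of 4790 and 8537 UMIs. The libraries shared 15 barcodes, of which 5 control and 6 ISO cells were macrophages. With 1 library per group there was no replicate check and no test between groups. All intervals, given in square brackets, are exact 95% intervals (Poisson for summed counts, Clopper-Pearson for shares) and cover counting error only, and shares of sorted CD45+ cells do not give the number of cells per heart.

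On the mouse build GRCm38, called mm10 in the processing notes, GENCODE places Lyve1 at chr7:110850607-110863239, Folr2 at chr7:101839988-101857194, and Cbr2 at chr11:120729489-120732114. The annotation gives Mrc1 at chr2:14229392-14332057, Gas6 at chr8:13465374-13494490, and Igf1 at chr10:87858265-87937042. It gives Pf4 at chr5:90772435-90773383, Cx3cr1 at chr9:119901616-120069879, and Gpr34 at chrX:13632089-13640858. These spans cover whole genes with exons and introns, and the counts are from the 3′ ends of polyadenylated transcripts. Lyve1 and Folr2 lie on the same chromosome, and the other 7 genes each have a chromosome of their own.

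Macrophages were defined by the 3 chains of complement C1q, which macrophages of the heart produce, as cells with at least 5 UMIs of C1qa, C1qb, and C1qc together and at least 1000 CPM (UMIs scaled to a fixed total for the cell or gate) of these. This gate held 2200 of 5641 control cells and 1681 of 5437 ISO cells. Macrophages were then split into Ccr2-negative cells, with 0 Ccr2 UMIs, and Ccr2-positive cells, with at least 1. A further gate took macrophages with at least 2 UMIs of Timd4, Cd163, Vsig4, Fcna, and Cd209f together, which are markers of resident macrophages that are not among the 9 genes. The label fits the control library. There, between 93.5% (Cx3cr1) and 99.1% (Pf4) of the UMIs of each of the 9 genes in kept cells lay in macrophages, and each gene had a higher level in Ccr2-negative than in Ccr2-positive macrophages. Resident markers were found by this rule in 1126 of 2200 control macrophages. Cd209f, a lectin gene among these markers, had 59 UMIs in control Ccr2-negative macrophages and 0 in ISO ones, which, taking 3 counts as the limit, allows up to 1.25 CPM. It was found in only 1.19% of these control cells, and the limit on summed UMIs takes no account of this.

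In the ISO library macrophages by this C1q gate, which leaves out cells with monocyte markers and little C1q, made up a smaller part of the sorted cells, and far fewer of them lacked Ccr2. Macrophages were 39.0% [37.7, 40.3] of kept cells in the control and 30.9% [29.7, 32.2] in the ISO library. Ccr2-negative macrophages went from 25.4% [24.3, 26.6] to 6.12% [5.50, 6.80] of kept cells, a 4.15-fold lower share, while Ccr2-positive macrophages went from 13.6% [12.7, 14.5] to 24.8% [23.6, 26.0]. Among macrophages alone, the Ccr2-negative share was 65.1% [63.1, 67.1] in control versus 19.8% [17.9, 21.8] in ISO cells. Cells with resident markers showed the same order, with 19.96% [18.9, 21.0] of kept control cells and 8.07% [7.36, 8.83] of kept ISO cells, a 2.47-fold lower share.

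Whether a cell shows a Ccr2 UMI depends on how deeply it was read. Ccr2-negative macrophages had medians of 8041 (control) and 6365 UMIs (ISO), against 15081 and 11750.5 UMIs in Ccr2-positive ones. When each macrophage was thinned at random to 2000 UMIs, which left out 57 control and 0 ISO cells, the Ccr2-negative share was 80.8% [79.1, 82.5] in control versus 42.6% [40.2, 45.0] in ISO cells. The direction held and the gap was smaller. Ccr2 RNA in barcodes of another cell type differed the same way. Cells with B cell markers had Ccr2 at 12.9 CPM [9.46, 17.2] in control versus 219 CPM [156, 299.9] in ISO cells, and a Ccr2 UMI was found after thinning in 15 of 871 and 6 of 35 of them, or 1.72% [0.967, 2.82] and 17.1% [6.56, 33.6] (unthinned 2.46% and 28.6%). Some ISO macrophages may therefore stand in the Ccr2-positive class through RNA of other cells, and how many was not tested. The lower share of macrophages as a whole was less firm. Without macrophage barcodes that also held at least 3 UMIs of a B cell, T cell, NK cell, or neutrophil list, the log2 ratio of the macrophage share was 0.07 in place of -0.34, which turned its direction. These barcodes were 1167 of the control and 634 of the ISO macrophages. The ISO library also held 2445 cells with classical monocyte markers (Ly6c2, Vcan, and Chi3l3) outside the macrophage gate, against 71 in the control, and these are part of the denominator. The sum of the cells in a sort is fixed, so that fewer macrophages and more monocytes cannot be told apart.

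The first of the 9 genes are those for uptake and binding. Lyve1 encodes a receptor for hyaluronan, a matrix sugar, and marks macrophages that lie along vessels. In Ccr2-negative macrophages it was at 269 CPM [260.5, 278] in control versus 372 CPM [348, 398] in ISO cells, a log2 ratio of 0.47 [0.36, 0.57]. In Ccr2-positive macrophages it was at 136 CPM [129, 142] and 72.1 CPM [68.3, 76.0], a log2 ratio of -0.91 [-1.02, -0.81]. The Lyve1 level was therefore higher in the ISO library in 1 class, though not when Ccr2 was called after thinning, and lower in the other. Folr2, the folate receptor beta, was at 337 CPM [327, 347] and 298 CPM [277, 321] in Ccr2-negative macrophages, with a log2 ratio of -0.18 [-0.29, -0.06]. In Ccr2-positive ones it was at 170.2 CPM [163, 178] and 54.9 CPM [51.6, 58.4], with a log2 ratio of -1.63 [-1.74, -1.52]. Folr2 thus differed little between libraries in cells without a Ccr2 UMI, though its log2 ratio there was -1.02 with Ccr2 called after thinning, and was much lower in the ISO library where Ccr2 was present.

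Mrc1 encodes the mannose receptor CD206, which clears glycoproteins. Its level in Ccr2-negative macrophages was 818 CPM [803, 833] in control versus 653 CPM [621, 686] in ISO cells, and in Ccr2-positive macrophages 483 CPM [471, 496] and 306 CPM [299, 314]. The log2 ratios were -0.32 [-0.40, -0.25] and -0.66 [-0.71, -0.60], so that Mrc1 was lower in the ISO library in both classes. It did not reach 2-fold there, but the second was -1.10 [-1.18, -1.01] without barcodes that also held UMIs of other lineages. Cbr2, a carbonyl reductase long used to mark tissue macrophages, was at 386 CPM [375, 396] and 301 CPM [279.7, 324] in Ccr2-negative macrophages, and at 220.3 CPM [212, 229] and 65.5 CPM [61.9, 69.3] in Ccr2-positive ones. Its log2 ratios were -0.36 [-0.47, -0.24] and -1.75 [-1.85, -1.65], and the intervals of the libraries did not overlap in either class. The first was -1.15 with Ccr2 called after thinning, and that of Mrc1 -0.78.

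The secreted factors went different ways. Gas6 encodes a bridging ligand that links dying cells to the receptors Axl and Mertk. It was at 276 CPM [267, 284] in control versus 166 CPM [150.2, 183] in ISO Ccr2-negative macrophages, a log2 ratio of -0.73 [-0.88, -0.58], and at 152 CPM [145, 159] and 33.6 CPM [31.0, 36.3] in Ccr2-positive ones, a log2 ratio of -2.17 [-2.31, -2.04]. Igf1, an insulin-like growth factor that acts on cardiomyocytes, was at 198 CPM [191, 206] and 144 CPM [129.6, 160.4] in Ccr2-negative macrophages and at 113 CPM [107, 119] and 32.9 CPM [30.3, 35.6] in Ccr2-positive ones. The log2 ratios of Igf1 were -0.45 [-0.62, -0.29] and -1.78 [-1.92, -1.64], so that both growth and clearance factors were lower in the ISO library in either class, and by over 2-fold where Ccr2 was present. With Ccr2 called after thinning they were over 2-fold lower without it as well, with -1.51 (Gas6) and -1.15 (Igf1). Pf4, a chemokine of platelets that resident macrophages also make, stood apart. It was at 2218 CPM [2194, 2243] in control versus 4164 CPM [4083, 4247] in ISO Ccr2-negative macrophages, with a log2 ratio of 0.91 [0.88, 0.94]. In Ccr2-positive macrophages it was at 1253 CPM [1233, 1273] and 1053 CPM [1038, 1067], with a log2 ratio of -0.25 [-0.28, -0.22], which is no lower than the median ratio of all genes there (-0.29) and was 0.10 with a C1q limit of 3000 CPM. It was -0.75 [-0.81, -0.70] without barcodes that also held UMIs of other lineages, and 0.57 [0.53, 0.61] in Ccr2-positive cells with resident markers. Pf4 was thus higher in the ISO library without Ccr2 and had no firm direction with it. As platelets carry Pf4, a platelet list was read beside it. Its 4 genes (Ppbp, Itga2b, Gp9, and Gp1bb) summed to 12.7 CPM in control versus 113 CPM in ISO Ccr2-negative macrophages, and the most abundant was Ppbp, at 11.2 and 112 CPM. Itga2b and Gp9, which define platelets, were at 0 in the ISO Ccr2-negative cells, and Gp9 was at 0 in the control ones. The part of platelet RNA in the Pf4 level was not tested.

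The receptors that sense signals from neighbouring cells were also lower in the ISO library. Cx3cr1, the receptor for fractalkine, was at 392 CPM [381, 402] in control versus 115 CPM [102, 129] in ISO Ccr2-negative macrophages, a log2 ratio of -1.77 [-1.95, -1.60]. In Ccr2-positive macrophages it was at 301 CPM [291, 311] and 80.0 CPM [76.0, 84.2], a log2 ratio of -1.91. Cx3cr1 was thus lower by a similar ratio in both classes. Gpr34, a receptor for lysophosphatidylserine, was at 109 CPM [103, 114] and 59.3 CPM [49.9, 69.9] in Ccr2-negative macrophages and at 73.8 CPM [69.0, 78.8] and 15.9 CPM [14.2, 17.9] in Ccr2-positive ones, with log2 ratios of -0.87 [-1.13, -0.63] and -2.21 [-2.40, -2.02]. The first was -1.60 with Ccr2 called after thinning. With B cell levels subtracted the latter was -3.95, but the ISO B cell level, 11.2 CPM [1.36, 40.6], rests on 2 UMIs. In larger ISO groups Gpr34 was at 1.20 CPM [0.798, 1.74] (classical monocytes), 1.47 CPM [0.178, 5.30] (neutrophils), 3.19 CPM [1.53, 5.87] (dendritic cells), and 34.4 CPM [20.02, 55.0] (ILC2).

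**Figure D1:**
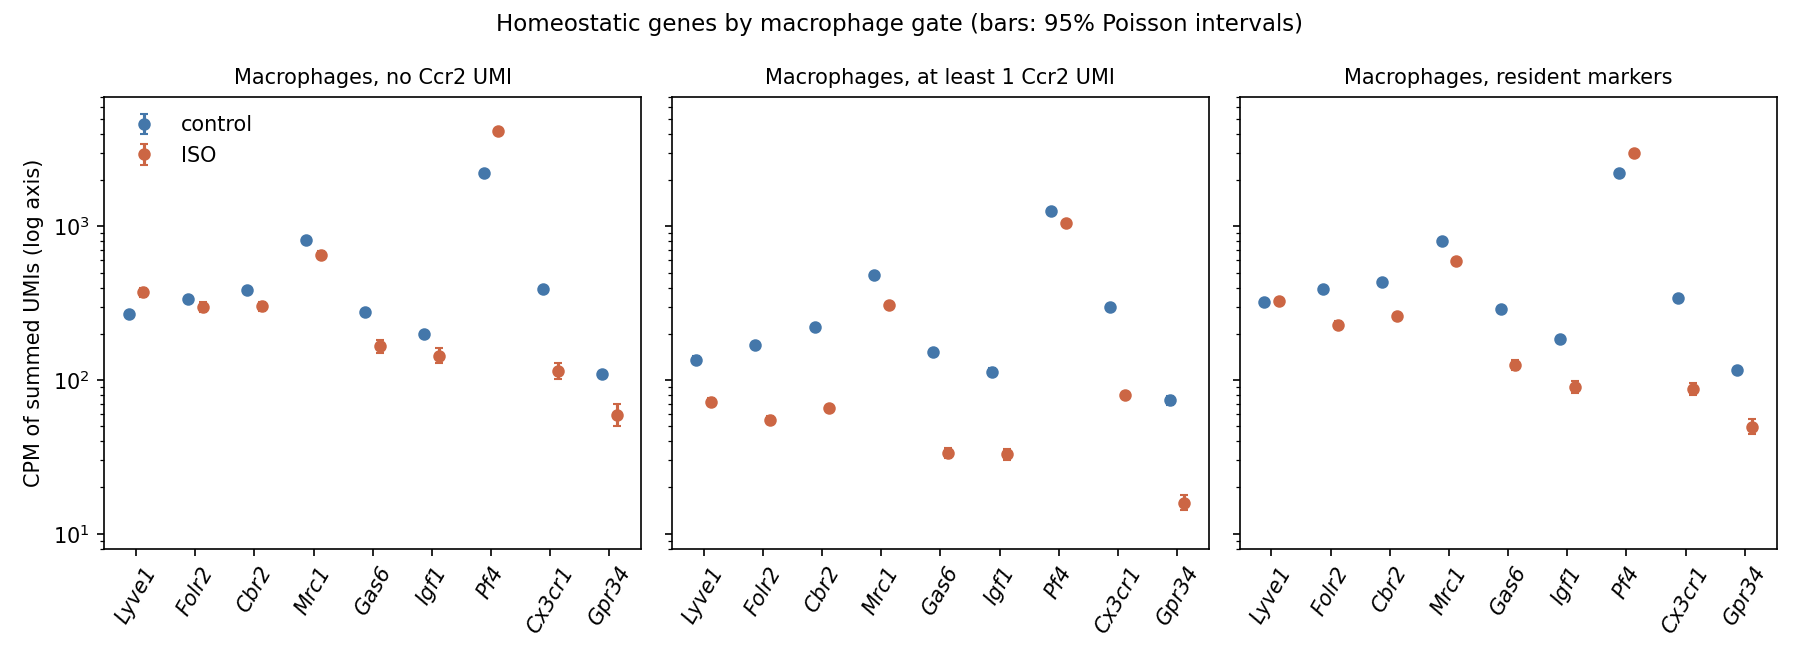
Level of each of the 9 homeostatic genes in control and ISO macrophages without a Ccr2 UMI, with a Ccr2 UMI, and with resident markers, as CPM of summed UMIs on a log axis with 95% Poisson intervals, which are often smaller than the points. In cells without Ccr2, Cx3cr1 is at 392 CPM in control versus 115 CPM in ISO cells, while Lyve1 and Pf4 are higher in the ISO library, Lyve1 not so with Ccr2 called after thinning. In cells with Ccr2, all 9 are lower in the ISO library, beside 8519 of 13295 genes, Pf4 not so relative to the median of all genes.

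Counted together, Cx3cr1 alone among the 9 genes was at least 2-fold lower in ISO Ccr2-negative macrophages, that is 1 of 9, where 12.9% of 12417 genes with at least 20 UMIs were that much lower. None of the 9 was at least 2-fold higher, where 6.36% of genes were. The share of the 9 genes past 2-fold was close to that of all genes. Their median log2 ratio was -0.36, against -0.10 over all genes. In Ccr2-positive macrophages 6 of 9 were at least 2-fold lower, where 20.9% of 13295 genes were, and none was 2-fold higher, where 6.78% were. There the median was -1.75, against -0.29 over all genes. The class was not of like make-up in the libraries. Cells with resident markers were 45.9% of it in control and 20.1% of it in ISO cells. Markers of other cells differed in this class too. Classical monocyte genes summed to 114 CPM in control versus 2495 CPM in ISO cells, and neutrophil genes to 283 and 658 CPM. B cell genes summed to 251 and 36.2 CPM, and T cell genes to 196 and 40.7 CPM. C1q itself was at 7693 and 4791 CPM. The part of these differences in the levels of the 9 genes was not tested. In macrophages as a whole, 6 of 9 were at least 2-fold lower beside 21.8% of 14298 genes, and the median was -1.74, against -0.32 over all genes. Relative to the median of all genes, 1 of 9 in the Ccr2-negative and 6 of 9 in the Ccr2-positive class were at least 2-fold lower, beside 11.2% and 14.2% of genes, and in the Ccr2-negative class 1, Pf4, was then at least 2-fold higher, beside 7.99% of genes.

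How far the level was kept in Ccr2-negative cells rested on how these cells were found. With Ccr2 called after thinning to 2000 UMIs, the class held 1732 control and 716 ISO macrophages, the median log2 ratio was -1.15, against -0.24 over all genes, and 6 of 9 genes were at least 2-fold lower, where 16.8% of 13428 genes were. Lyve1 was then at 233 CPM in control versus 185 CPM in ISO cells, a log2 ratio of -0.33 [-0.42, -0.24], which turned its direction. Pf4 kept a higher level in the ISO library, with a log2 ratio of 0.19 [0.17, 0.22]. The log2 ratios of the others were -1.02 (Folr2), -1.15 (Cbr2), -0.78 (Mrc1), -1.51 (Gas6), -1.15 (Igf1), -1.99 (Cx3cr1), and -1.60 (Gpr34), so that Folr2 too was no longer near its control level. Thinning places cells with few Ccr2 transcripts in the negative class, and 716 ISO cells then stood where 333 had stood. Allowing 1 Ccr2 UMI gave a median of -0.58 (all genes -0.12), and leaving out macrophage barcodes with UMIs of other lineages gave -0.59 (all genes -0.03). Cx3cr1 was at least 2-fold lower under each of these choices. In Ccr2-positive macrophages Lyve1 also depended on the cells taken in, with a log2 ratio of -1.60 without barcodes of other lineages and -0.43 with a C1q limit of 3000 CPM.

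The gate on resident markers does not use Ccr2 and shows the genes in cells that held UMIs of such markers. It held 1126 control and 439 ISO macrophages of like depth, with medians of 10973 and 11220 UMIs. Of these, 644 control and 208 ISO cells also held at least 3 UMIs of a B cell, T cell, NK cell, or neutrophil list. Classical monocyte genes summed to 54.2 CPM in control versus 1518 CPM in ISO cells, and neutrophil genes to 378 and 801 CPM. B cell genes summed to 286 and 44.2 CPM, and T cell genes to 166 and 39.6 CPM. Whether all cells of this gate were resident was not tested. In these cells 4 of 9 genes, Gas6, Igf1, Cx3cr1, and Gpr34, were at least 2-fold lower in the ISO library, where 14.3% of 12908 genes were, and none was 2-fold higher, where 6.004% were. The median of the 9 was -0.78, against -0.16 over all genes, and relative to the latter 3 of 9 were at least 2-fold lower, without Igf1, beside 11.2% of genes. Gas6 was at 292 CPM [283, 301] in control versus 125 CPM [116, 135] in ISO cells. Igf1 was at 186 CPM [179, 193] and 90.5 CPM [83.0, 98.5]. Cx3cr1 was at 344 CPM [335, 354] and 87.1 CPM [79.7, 94.96]. The log2 ratios were -1.22 [-1.34, -1.11], -1.04 [-1.18, -0.91], -1.98 [-2.12, -1.85] in this order, and -1.22 [-1.40, -1.04] for Gpr34. Folr2 and Cbr2 were lower by less than 2-fold, with log2 ratios of -0.78 [-0.87, -0.70] and -0.75 [-0.83, -0.67], and Mrc1 had -0.42 [-0.47, -0.36]. Without barcodes that also held UMIs of other lineages, Folr2 and Cbr2 had -0.98 and -1.01. Then 5 of 9 genes were at least 2-fold lower, beside 10.3% of 10478 genes. A second rule on B, T, NK cell or Retnlg UMIs left 515 control and 289 ISO cells, against 482 and 231 by the first. With it Folr2 and Cbr2 had -1.12 and -1.13. Lyve1 was at 323 CPM [314, 333] and 329 CPM [315, 344], a difference within counting error, and had a log2 ratio of -0.32 [-0.43, -0.21] without barcodes that also held UMIs of other lineages. Pf4 was higher in the ISO library, at 2220.2 CPM [2196, 2244] and 3022 CPM [2978, 3067].

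The cells with resident markers were not alike in the libraries with regard to Ccr2. In the control 68.7% of them had no Ccr2 UMI, and in the ISO library 38.3%. Ccr2 was called here in full counts only. With Ccr2 called after thinning, Folr2, Cbr2, and Mrc1 had log2 ratios of -1.02, -1.15, and -0.78 in all Ccr2-negative macrophages. Among the 774 control and 168 ISO cells with resident markers and no Ccr2 UMI, Folr2, Cbr2, and Mrc1 did not differ beyond counting error, with log2 ratios of 0.00 [-0.13, 0.13], -0.04 [-0.17, 0.08], and -0.04 [-0.13, 0.05]. Gas6, Igf1, and Gpr34 were lower in them, with -0.48 [-0.66, -0.31], -0.44 [-0.66, -0.23], and -0.50 [-0.80, -0.22]. Lyve1 was higher in the ISO library in them, at 409 and 662 CPM, and also in the cells with Ccr2, at 211 and 245 CPM, so that its level ratio over the whole gate came with a changed mix of these cells. Cx3cr1 was lower in the cells without Ccr2, at 383 CPM in control versus 115 CPM in ISO cells, and Pf4 was higher, at 2731 and 5847 CPM. In the 352 control and 271 ISO cells with both resident markers and Ccr2, Folr2 had a log2 ratio of -0.74 [-0.86, -0.61], Gas6 of -1.17 [-1.33, -1.01], and Cbr2, Igf1, Mrc1, Cx3cr1, and Gpr34 had -0.73, -0.92, -0.16, -1.87, and -1.31. With Timd4 alone as the marker, a receptor for phosphatidylserine, 640 control and 164 ISO macrophages were left. In them Cx3cr1 was at 324 and 92.7 CPM and Lyve1 at 446 and 460.4 CPM, and Pf4, at 2449 and 2293 CPM, was no longer higher in the ISO library. Folr2, Cbr2, and Mrc1 were lower in these ISO cells, with log2 ratios of -0.87 [-0.99, -0.75], -0.70 [-0.82, -0.59], and -0.72 [-0.81, -0.64].

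Cells were also counted in place of transcripts. The Ccr2 classes here are those of full counts, a call on which the split in levels depended. After thinning to 2000 UMIs, 66.9% [64.9, 68.9] of 2143 control macrophages had UMIs of at least 3 of the 9 genes, against 26.7% [24.5, 28.8] of 1681 ISO macrophages. Without thinning these shares were 92.8% and 55.0%. Among Ccr2-negative cells the thinned shares were 72.7% and 58.0%, and among Ccr2-positive cells 56.3% and 18.9%. Cells with at least 3 of the genes were 25.4% of all kept control cells and 8.24% of all kept ISO cells. Macrophages with none of the 9 genes after thinning were 63 of 760 Ccr2-positive control cells and 486 of 1348 Ccr2-positive ISO cells, or 8.29% and 36.1%. Without thinning, 99.6% and 85.2% of these cells had at least 1 of the genes. In cells with resident markers the shares with at least 3 genes were 81.9% and 68.6%, and those with at least 5 were 47.2% and 25.3%.

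Levels and shares of cells differed in how far they moved together. In Ccr2-negative macrophages a Cx3cr1 UMI was found after thinning in 43.2% [40.5, 45.8] of control and 17.4% [13.5, 21.9] of ISO cells (unthinned 71.7% and 32.1%). A Pf4 UMI was found in 85.0% [83.0, 86.9] and 85.6% [81.3, 89.2] of them (unthinned 94.6% and 92.2%). These shares lie near their ceiling and say little about the higher Pf4 level in the ISO library. Lyve1 was found in 24.9% [22.7, 27.3] and 29.4% [24.6, 34.6] (unthinned 40.8% and 44.7%), and these intervals overlapped. In the control, free RNA set a low floor in cells with B cell markers. In 871 thinned control cells with B cell markers, which should lack these genes and had a median of 3360 UMIs, the shares ran from 0.230% (Gpr34) to 4.36% (Pf4). The ISO library had only 35 such cells, with a median of 3436 UMIs, of which 0 had a Pf4 UMI after thinning. A count of 0 there, taking 3 cells as the limit, allows up to 8.57%, and 2 had an Mrc1 UMI and 1 a Gpr34 UMI. A low floor was therefore not shown for the ISO library. Its cells with ILC2 markers had Pf4 at 277 CPM [232, 327].

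**Figure D2:**
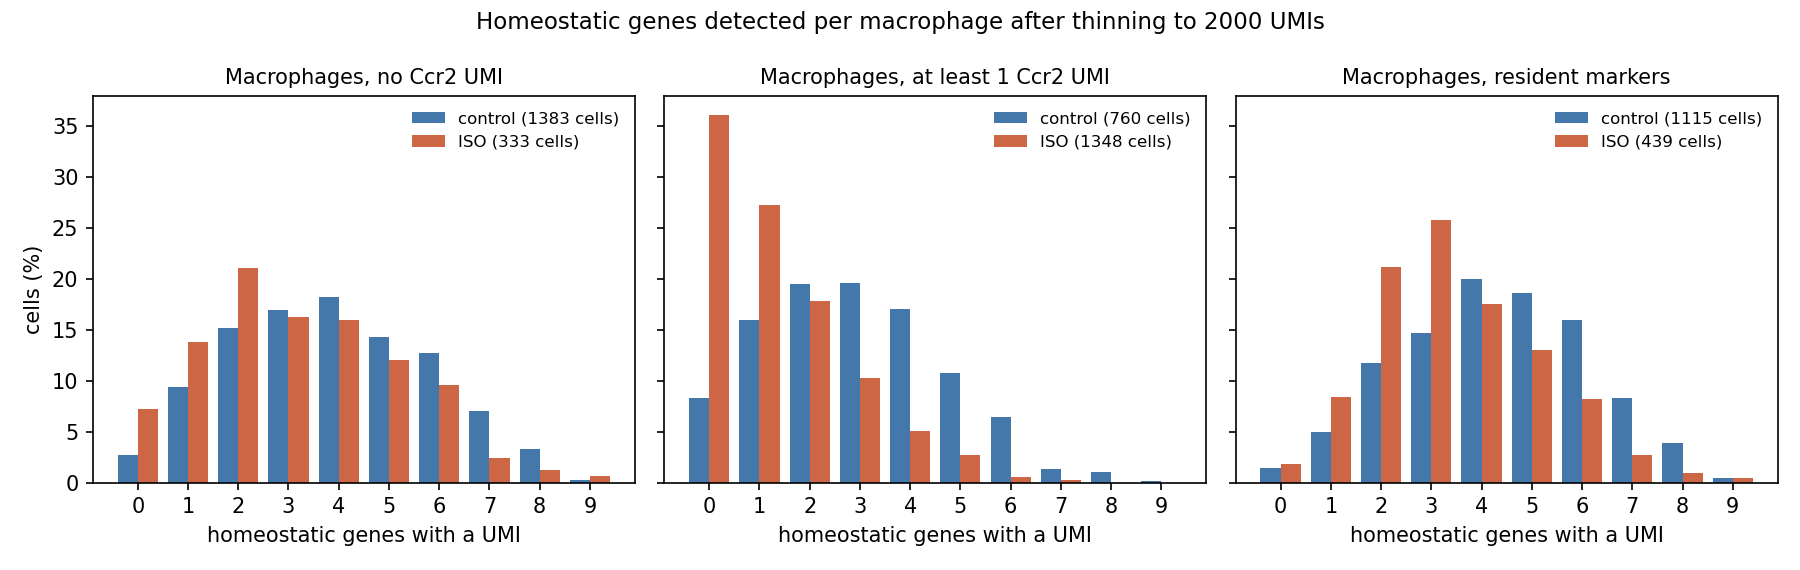
Share of macrophages (vertical axis, percent of cells) by how many of the 9 homeostatic genes had a UMI after each cell was thinned to 2000 UMIs (horizontal axis), for cells without Ccr2, with Ccr2, and with resident markers, in the control and ISO libraries. In cells with Ccr2 the ISO bars are highest at 0 genes, with 36.1% of cells, while the libraries lie closer together in cells without Ccr2.

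To set loss of cells against loss inside cells on 1 scale, the difference in mean CPM per macrophage was divided into the part from the shares of the Ccr2 classes and the part from the levels within them. All 9 genes were lower per macrophage in the ISO library. In summed counts of macrophages all 9 were lower as well, beside 9313 of 14298 genes. The part from the class shares ranged from 10.3% (Cx3cr1) to 209% (Pf4) of the difference, with a median of 42.5%. For Cx3cr1, the mean was 390.5 CPM in control versus 92.7 CPM in ISO macrophages, and nearly all of the difference lay within the classes. For Lyve1, at 244 and 133 CPM, the class shares gave 105% of the difference, but 62.3% with Ccr2 called after thinning, where its level was lower in both classes, and 83.7% with classes by resident markers. For Pf4, at 2042 and 1587 CPM, the levels added up to the other direction and made up for part of the lost share. The Pf4 part from class shares was 117% after thinning, and with a C1q limit of 3000 CPM its difference was only -17.3 CPM, too small to divide. Folr2 lay between these, with 53.5%, and Gas6, Igf1, Cbr2, Mrc1, and Gpr34 had 35.0%, 38.6%, 43.7%, 42.5%, and 27.7%. The median part depended on the classes. It was 25.2% with Ccr2 called after thinning, and 23.5% with classes by resident markers. The parts of single genes moved as well. That of Cx3cr1 was 4.69% with Ccr2 called after thinning. With classes by resident markers it was -1.28%, and that of Igf1 was 14.9%. Cells with resident markers were 45.9% of control and 20.1% of ISO Ccr2-positive macrophages. The part from levels can therefore hold a change in the mix of cells within a class. A class is not a lineage, and a cell that gained Ccr2 or lost its markers cannot be told apart from a cell that was replaced.

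**Figure D3:**
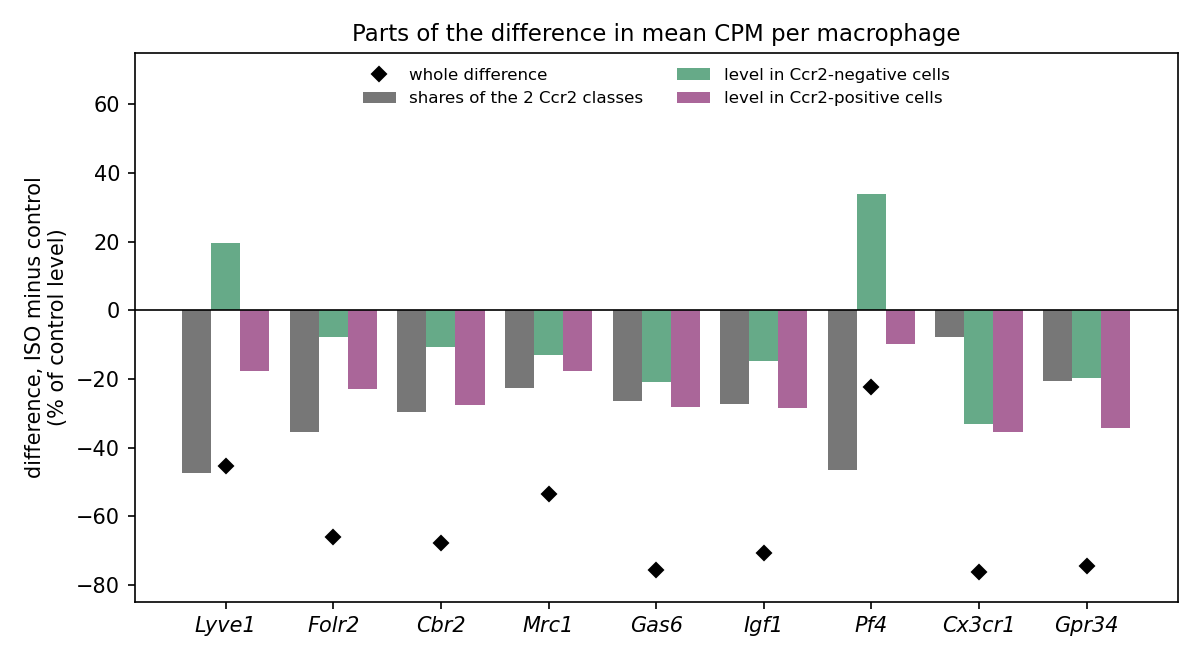
Difference in mean CPM per macrophage, ISO minus control, as a percent of the control level for each of the 9 homeostatic genes (diamonds), with bars for its 3 parts, which are the shares of the Ccr2 classes, the level in Ccr2-negative cells, and the level in Ccr2-positive cells. The bar for class shares is longest for Lyve1 and Pf4 and shortest for Cx3cr1, and only Lyve1 and Pf4 have a bar above 0, Lyve1 not so with Ccr2 called after thinning.

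Cells were also chosen by the other 8 genes, and the gene left out was read in them. Macrophages with at least 3 UMIs of the other 8 were 95.2% to 97.6% of control and 64.4% to 74.3% of ISO macrophages. The limit was thus loose, and cells that passed it need not keep the set. In these cells 8 of 9 genes were lower in the ISO library, with a median log2 ratio of -1.44. Of all genes with at least 20 UMIs in the same cells, 63.0% to 64.0% were lower, with medians from -0.28 to -0.25, depending on the gene left out. Cx3cr1 was at 352 CPM in control versus 90.1 CPM in ISO cells, and Gas6 at 219.8 and 60.6 CPM. Pf4 alone was not lower, at 1800 and 1858 CPM. Cells at 2 or 3 UMIs of the other genes, next to the limit, numbered 97 in control versus 238 in ISO cells for Pf4, so that the limit bore more on the ISO cells.

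Ccr2-negative macrophages of the heart are of at least 2 kinds, which differ in MHC class II, the molecules that present antigen to T cells. The class II genes H2-Aa, H2-Ab1, H2-Eb1, and Cd74, which B cells also express, were each over 2-fold lower in ISO Ccr2-negative macrophages, with H2-Aa at 4749 CPM [4713, 4786] in control versus 761 CPM [726, 797] in ISO cells. The log2 ratio of H2-Aa was -2.64 [-2.71, -2.57], and -1.82 with Ccr2 called after thinning. As B cells express these genes, their levels cannot stand for free RNA here. B cell genes in these macrophages were themselves at 327 CPM in control versus 90.6 CPM in ISO cells, and the part of B cell RNA in the class II levels is not known. Parted at the control median of 27414 CPM of these 4 genes, 314 of 333 ISO cells lay below it, against 716 of 1433 control cells. Control cells below the line had Lyve1 at 439.5 CPM and those above it at 98.5 CPM. Among cells below the line, Lyve1 was at 439.5 CPM in control versus 399 CPM in ISO cells, a log2 ratio of -0.14 [-0.25, -0.03]. The Pf4 level was higher there too, at 2786 and 4425 CPM, and Folr2 was at 503 and 316 CPM. Gas6 was at 363 and 174 CPM, a log2 ratio of -1.06. The 19 ISO cells above the line held 2 Lyve1 UMIs, too few to compare. With 119 UMIs in these cells, Pf4 was lower in the ISO library above the line, at 1650.2 and 708 CPM, a log2 ratio of -1.21 [-1.49, -0.96]. As class II itself differed between the libraries, a cell below the line in 1 library need not be of the same kind as one below it in the other.

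Other genes of resident macrophages moved both ways. Of 26 such genes, 24 had at least 20 UMIs in Ccr2-negative macrophages, and 4 were at least 2-fold lower and 1 at least 2-fold higher in the ISO library, close to the 12.9% and 6.36% of all genes, with a median log2 ratio of -0.17. These counts hold for Ccr2 called in full counts. With Ccr2 called after thinning, Fcgrt, Hpgd, and Timd4 were over 2-fold lower as well, with log2 ratios of -1.45, -1.67, and -1.18. Ccl24 went the other way, from 0.33 to 0.92. In Ccr2-positive macrophages 9 of 25 were lower and 3 higher by 2-fold, beside 20.9% and 6.78% of all genes, with a median of -0.62. Sepp1, listed under its older symbol and encoding a selenium carrier, was at 2014 CPM [1991, 2038] in control versus 819 CPM [783, 856] in ISO Ccr2-negative macrophages. Fcrls, an Fc receptor-like scavenger gene, was at 331 CPM [321, 340.5] and 164 CPM [148, 181]. Cd163, the scavenger receptor for hemoglobin bound to haptoglobin, was higher in the ISO library, at 307 CPM [298, 316] and 454 CPM [427, 482], though not with Ccr2 called after thinning, and Timd4 was lower, at 57.5 CPM [53.6, 61.7] and 42.6 CPM [34.7, 51.7]. The log2 ratios of Sepp1, Fcrls, and Timd4 were -1.30, -1.01, and -0.43. They were -1.95, -1.72, and -1.18 with Ccr2 called after thinning.

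The partners of the 9 genes were read as well. Axl, a receptor for Gas6, was at 144 CPM [138, 151] in control versus 76.8 CPM [66.1, 88.7] in ISO Ccr2-negative macrophages, and Mertk, which shares this ligand and takes up dying cells, at 70.9 CPM [66.5, 75.4] and 74.3 CPM [63.8, 86.0]. The ligand and 1 of its receptors were lower in the ISO library, while Mertk did not differ beyond counting error in full counts and had a log2 ratio of -0.43 with Ccr2 called after thinning. Igfbp4, a protein that binds insulin-like growth factors, was at 198 CPM [191, 206] and 95.2 CPM [83.2, 108]. Its log2 ratio was -1.06, and -1.82 with Ccr2 called after thinning. That of Axl was -0.91, and -1.33 without barcodes that also held UMIs of other lineages. Of the 10 partner genes, 9 had at least 20 UMIs in this class, and 3 were lower and 1 higher by at least 2-fold, beside 12.9% and 6.36% of all genes, and of the lower ones Cx3cl1 and Cxcr3 rest on 1 ISO UMI each. Cx3cl1, the ligand of Cx3cr1, had 28 UMIs in control and 1 in ISO Ccr2-negative macrophages, and is made mainly by cells that this sort leaves out.

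Genes of monocytes and of macrophages newly made from them were often higher in the ISO library. Of 12 such genes, 11 had at least 20 UMIs in Ccr2-negative macrophages and 9 were at least 2-fold higher in the ISO library, where 6.36% of all genes were. Spp1, encoding osteopontin, was at 9.41 CPM [7.86, 11.2] in control versus 3367 CPM [3294, 3441] in ISO cells, and Fn1, encoding fibronectin, at 4.13 CPM [3.12, 5.34] and 413 CPM [388, 439.7]. The macrophages with resident markers had them too, with Spp1 at 11.3 and 2298 CPM and Chi3l3, encoding a chitinase-like protein, at 19.9 and 1233 CPM. In the ISO library Spp1 was also at 7131 CPM [7096, 7165] in classical monocytes, 5638 CPM [5513, 5765] in neutrophils, 84.4 CPM [47.2, 139] in 35 B cells, 298 CPM [279, 318] in dendritic cells, 776 CPM [700.4, 858] in ILC2, and 2784 CPM [2554, 3029] in 32 NK cells. In monocytes, neutrophils, and NK cells it was above its level in the macrophages with resident markers. For Spp1, free RNA and barcodes of more than 1 cell are therefore not set aside as a source. Resident cells that took on such genes, arrived cells without a Ccr2 UMI, and RNA from other cells cannot be told apart here.

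Markers of other cells in Ccr2-negative macrophages differed between the libraries. The 3 B cell genes summed to 327 and 90.6 CPM in control and ISO cells (most abundant Cd79b, 180.2 and 57.6 CPM), the 3 T cell genes to 157 and 44.2 CPM (Cd3d, 75.8 and 23.8 CPM), and the 3 NK cell genes to 15.9 and 14.6 CPM. The 4 neutrophil genes summed to 398 and 925 CPM (Retnlg, 189 and 499 CPM) and the 3 classical monocyte genes to 24.4 and 422 CPM, of which Chi3l3 made 4.70 and 332 CPM, a gene that the macrophages themselves may express. B cell and T cell transcripts were thus higher in the control macrophages, and those of neutrophils in the ISO ones. The 5 dendritic cell genes summed to 258 and 91.0 CPM, the 3 ILC2 genes to 72.1 and 50.1 CPM, and the 3 nonclassical monocyte genes to 53.8 and 33.4 CPM. The 3 lymphatic endothelial genes, of interest as this endothelium also expresses Lyve1, summed to 44.9 and 19.2 CPM. Pecam1 made 43.0 and 18.4 CPM of this, so that the sum says little about Prox1 and Flt4. The 4 fibroblast genes summed to 139 and 255 CPM, mostly Gsn, with Col3a1 at 0 in the ISO cells, and the 3 cardiomyocyte genes to 41.3 and 67.2 CPM. No other defining marker of these lists was at 0. The part of these cells in the levels above was not tested. Without the barcodes that held at least 3 UMIs of the B cell, T cell, NK cell, or neutrophil lists, 758 control and 212 ISO Ccr2-negative macrophages were left. In them Cx3cr1 was at 492 and 107 CPM, Pf4 at 2969.5 and 4592 CPM, and Lyve1 at 381 and 449 CPM, each in the direction given above.

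Some of the 9 genes were also found outside macrophages in the control. Cx3cr1 was at 299 CPM [245, 362] in 66 cells with nonclassical monocyte markers, a cell type that patrols vessels through this receptor, and at 121 CPM [95.5, 151] in cells with classical monocyte markers, with 66.6 CPM [53.8, 81.5] in NK cells and 56.4 CPM [37.2, 82.1] in neutrophils. Its level in nonclassical monocytes lay within the interval of that in Ccr2-positive macrophages (291 to 311 CPM). Gpr34 was at 56.9 CPM [44.2, 72.2] in 195 cells with ILC2 markers, below the level in Ccr2-positive macrophages, and Igf1 at 45.6 CPM [30.5, 65.4] in classical monocytes. The ISO library had too few nonclassical monocytes to use, at 10 cells. In the ISO library more of the set lay outside the gate. The share of UMIs outside macrophages was 47.6% for Cx3cr1, 34.1% for Mrc1, 18.6% for Pf4, and 1.93% for Lyve1, against 6.48%, 2.13%, 0.879%, and 1.13% in the control. ISO cells with classical monocyte markers had Mrc1 at 113 CPM [108, 117] and Pf4 at 207 CPM [201, 213], where the control ones had 53.4 CPM [37.0, 74.6] and 42.4 CPM [27.9, 61.7]. ISO cells with neutrophil markers had Pf4 at 381 CPM [349, 415]. ISO cells with ILC2 markers, which should lack it, had Pf4 at 277 CPM [232, 327], against 50.2 CPM [38.3, 64.7] in the control, so that Pf4 in these groups was not read as expression. Lyve1 was at 0.815 CPM [0.491, 1.27] in the ISO monocytes.

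Across 19 cell groups with at least 20 cells, taking both libraries and both Ccr2 classes, the genes outside all lists whose level was most like the mean of the 9 were Pmp22 (Pearson r = 0.954), Itsn1 (0.929), 2810055G20Rik (0.926), Colec12 (0.919), and Mmp13 (0.914), among 6048 genes. These groups share libraries and depth, and the values are descriptions. Pmp22, a membrane protein best known from myelin, was at 245 CPM in control versus 219.5 CPM in ISO Ccr2-negative macrophages and at 162 and 42.0 CPM in Ccr2-positive ones, much as Folr2 was. Colec12, a scavenger receptor of the collectin family, was higher in the ISO library in the first class, at 40.6 and 96.8 CPM, and Mmp13, a collagenase, was lower, at 132 and 48.8 CPM.

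Since members of the set parted in their response, the sequence of their annotated promoters was read for letters bound by factors of myeloid cells. RefSeq promoters on GRCm38.p6, of 300 bases, were matched for 7 of the 9 genes (8 starts, as Folr2 has 2), and Lyve1 and Gpr34 were missing. These windows do not all lie before the gene spans given above. That of Pf4 crosses the start of its span, and those shown for Folr2 and Cx3cr1 lie inside theirs. The letters searched on both strands were GAGGAAG, the core bound by PU.1, and TGANTCA, the site of AP-1. They do not overlap in the promoters printed here. GAGGAAG was in 13.6% of 32851 promoters and TGANTCA in 7.81%. Among the 8 starts, GAGGAAG was in 4 (Cbr2, Igf1, Mrc1, and Pf4) and TGANTCA in 2 (Folr2 and Igf1). The promoters below are shown for Folr2 (chr7:101845282-101845581, minus strand), which was nearly level in macrophages without a Ccr2 UMI though not after thinning, for Pf4 (chr5:90772185-90772484, plus strand), which was higher, and for Cx3cr1 (chr9:120068247-120068546, minus strand), which was lower, with matches in capitals.
Folr2: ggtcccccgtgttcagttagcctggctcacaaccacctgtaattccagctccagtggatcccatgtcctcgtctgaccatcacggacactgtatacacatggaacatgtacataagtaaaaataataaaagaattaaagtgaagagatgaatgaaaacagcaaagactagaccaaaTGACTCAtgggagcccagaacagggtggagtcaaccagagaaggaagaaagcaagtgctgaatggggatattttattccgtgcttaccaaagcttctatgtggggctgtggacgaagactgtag
Pf4: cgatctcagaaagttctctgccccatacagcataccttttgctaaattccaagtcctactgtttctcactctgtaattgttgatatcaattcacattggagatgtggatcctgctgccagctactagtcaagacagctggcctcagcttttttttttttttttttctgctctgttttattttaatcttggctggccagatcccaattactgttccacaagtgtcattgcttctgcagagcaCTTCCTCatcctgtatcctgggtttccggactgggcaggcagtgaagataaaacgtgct
Cx3cr1: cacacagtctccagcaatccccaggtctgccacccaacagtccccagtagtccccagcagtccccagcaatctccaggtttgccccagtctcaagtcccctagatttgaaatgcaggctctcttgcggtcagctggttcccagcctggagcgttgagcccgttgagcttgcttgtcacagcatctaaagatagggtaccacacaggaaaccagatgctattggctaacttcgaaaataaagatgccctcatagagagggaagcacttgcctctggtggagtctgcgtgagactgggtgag
The Folr2 start shown holds TGANTCA, while its other start (chr7:101857141-101857440) holds neither motif. The Pf4 start holds GAGGAAG on the opposite strand, and neither is in the window of Cx3cr1. A match is a description of the sequence and not a binding site.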

How the data were processed

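Per the labels, the authors used bcl2fastq 2.19.1.403, UMI-tools 1.0.0, STAR 2.7.3a on mm10, and featureCounts 1.6.4; the deposited values are raw UMI counts per gene and barcode, and the gene annotation was not given in the sources used here. The study's cell filters were applied (over 500 genes, below 6000 genes, mitochondrial share below 25%). Gates and thinning (seed 1, 2000 UMIs) are described in the report. Levels are CPM of UMIs summed over a gate; ratios used 0.5 added UMIs. A gene was counted as past 2-fold, with at least 20 UMIs in both libraries together, by its ratio alone. No doublet caller was run; macrophage barcodes of 2 lineages were left out as an alternative. Cell groups were assigned by at least 3 UMIs of a marker list and 2 times those of any other. The part from class shares used mean shares and mean levels of the libraries. Genes named are the 9, the members of marker lists written down in the design, and the 5 outside them most like the 9. Values of 1 list gene are not reported here. The 9 genes and the lists were chosen with earlier results of these data known. Values were computed in Python (3.11.15; pandas 2.3.3, numpy 2.4.6), intervals with scipy 1.17.1 and plots with matplotlib 3.10.9; the functions were checked on made counts with known answers.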

Additional observations from a re-analysis of the deposited data

Results flagged for a closer look

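Lyve1 and Pf4 were higher in the ISO library in Ccr2-negative macrophages and lower in Ccr2-positive macrophages, so that the classes moved opposite ways in the counts as reported. Lyve1 in Ccr2-negative cells turned with Ccr2 called after thinning, and Pf4 in Ccr2-positive cells was no lower than the median of all genes. In cells with resident markers both genes were higher in the ISO library in both classes, with log2 ratios of 0.69 and 0.22 for Lyve1 and 1.10 and 0.57 for Pf4. In Ccr2-negative cells below the control median of MHC class II, Lyve1 was lower, with -0.14 [-0.25, -0.03]. For Lyve1 the log2 ratios were 0.47 and -0.91, a difference of 1.38. For Pf4 they were 0.91 and -0.25, a difference of 1.16. Each class is 1 group of cells from the same library, and the difference was not tested.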

How the results depend on the processing

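Across 27 alternative settings, 101 of 103 summary values kept their direction and 48 moved by more than counting error; the 2 that turned are the macrophage share without barcodes of other lineages, by either rule. Of 1293 single-gene values 1246 kept their direction; Lyve1 and Cd163 in Ccr2-negative cells turned with Ccr2 called after thinning, and 0 values past 2-fold turned. As reported, the log2 ratios of shares were -0.34 (macrophages), -1.72 (Ccr2-negative of macrophages), and -1.33 (at least 3 of the 9 genes), the median log2 ratios of the 9 genes -0.36 (Ccr2-negative), -1.75 (Ccr2-positive), and -0.78 (resident markers), and the part from class shares 42.5%. With a C1q limit of 500 CPM, the macrophage share was -0.21. With a C1q limit of 3000 CPM, the macrophage share was -0.81, Ccr2-negative share -1.33, Ccr2-positive median -1.29, resident median -0.65, share with 3 genes -0.94. With a C1q limit of 20 UMIs, the macrophage share was -0.44, share with 3 genes -1.19, class-share part 44.9%. With up to 1 Ccr2 UMI in the negative class, the Ccr2-negative share was -1.47, Ccr2-negative median -0.58, class-share part 40.3%. With Ccr2 called after thinning, the Ccr2-negative share was -0.92, Ccr2-negative median -1.15, class-share part 25.2%. With barcodes of 2 lineages left out, the macrophage share was 0.0726, Ccr2-negative median -0.59, Ccr2-positive median -2.25, resident median -1.01, share with 3 genes -1.58, class-share part 38.8%. With the 5% of cells with the most UMIs left out, the Ccr2-positive median was -1.88, class-share part 40.0%. With the mean of per-cell CPM, the Ccr2-positive median was -1.93, resident median -0.69. With UMIs per cell, the Ccr2-negative median was -0.78, Ccr2-positive median -1.94. With totals without mitochondrial, ribosomal protein and Gm26924 UMIs, the Ccr2-negative median was -0.48, Ccr2-positive median -1.89, resident median -0.91. With ratios relative to the median of all genes, the Ccr2-positive median was -1.46, resident median -0.63. With all kept cells as denominator, the Ccr2-negative share was -2.05. With at least 1 resident marker UMI, the resident median was -0.94. With resident markers counted after thinning, the resident median was -0.93. With Timd4 alone, the resident median was -0.87. With thinning to 1000 UMIs, the share with 3 genes was -1.57. With thinning to 4000 UMIs, the share with 3 genes was -1.16. With 2 genes in place of 3, the share with 3 genes was -0.89. With 5 genes in place of 3, the share with 3 genes was -1.96. With classes by resident markers, the class-share part was 23.5%. Leaving out barcodes found in both libraries, and those with B, T, NK cell or Retnlg UMIs, were chosen after seeing the data; the first moved none. With the second of these, the macrophage share was 0.22, Ccr2-negative share -1.88, Ccr2-negative median -0.65, Ccr2-positive median -2.20, resident median -1.13, share with 3 genes -1.52, class-share part 37.6%. The cause was not tested. With 1 pooled library per group, differences between animals, preparations, and sequencing runs cannot be told apart from the treatment, and genes with under 20 UMIs in a gate have wide intervals.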
